A study of Mus musculus with 2 samples.

Results

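Whole spinal cords of FVB mice had been dissociated at postnatal day 4 and sequenced as single cells, with 1 library labelled SMA and 1 labelled Con. The SMA animals were mSmn-/- and the Con animals mSmn+/-, and every animal also carried the human transgene (hSMN22tg/0), so the controls too had lost 1 mouse Smn allele. This is the Taiwanese model of spinal muscular atrophy, a motor neuron disease caused by loss of the SMN protein. The cords of 3 SMA mice had been pooled, the controls came from the same litter, sexes were not stated, and with 1 library a group no difference could be set against a spread between animals.

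The barcodes described here came from the library labelled Con and were chosen by their own counts, not by a label of the submitters. A barcode was a member if it had 200 to 4000 genes, under 10% of its UMIs (unique molecular identifiers, each tagging 1 captured RNA molecule) in mitochondrially encoded genes, 30% or more in ribosomal-protein genes, under 5% in haemoglobin genes, and at least 1 UMI of Stmn2 or Mycn. Under this rule 1334 of 25419 barcodes of the library labelled Con were members (5.25%, 95% exact Clopper-Pearson interval 4.98 to 5.53). The same rule found 2 of 26921 barcodes in the library labelled SMA (0.00743%, 0.00090 to 0.0268). The series held 52340 barcodes in all. Intervals here cover counting error only.

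Mycn is a MYC-family transcription factor of immature neural and neural crest cells. Stmn2 is a stathmin that regulates microtubules in growing axons, and Tfap2b is an AP-2 transcription factor used by sympathetic neuron precursors and by some spinal interneurons. Ribosomal-protein mRNAs are abundant in growing cells. Per the study's methods, a cluster with a ribosomal share over 30% had been left out of its analysis. Malat1 is a long RNA kept in the nucleus, and mitochondrially encoded RNAs mark the presence of mitochondria, so both were read beside the markers.

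Barcode sequences identify the members in the deposited table and, unlike expression values, were not used by the rule. The 3 deepest members with under 2% mitochondrial UMIs and the 2 barcodes labelled SMA under the same rule are shown to set them side by side.
Con member 1: gtaatgcgtacgatgg
Con member 2: gactctctctcatgga
Con member 3: gttgcggagtctggtt
SMA barcode 1: acctaccaggctgtag
SMA barcode 2: agcttcctcttacact
Con member 1 had 6255 UMIs, 1614 genes, a ribosomal share of 35.8%, 22 Stmn2 UMIs and 0 Mycn UMIs, and its leading gene outside the ribosomal-protein genes was Timp1, a metalloproteinase inhibitor, with 225 UMIs. Con members 2 and 3 had 2982 and 2867 UMIs and ribosomal shares of 47.7% and 50.4%. Their Stmn2 UMIs were 53 and 36 and their Mycn UMIs 12 and 9, with mitochondrial shares of 0.134% and 0.174%. SMA barcodes 1 and 2 had 3468 and 3454 UMIs, ribosomal shares of 32.2% and 34.4%, and mitochondrial shares of 7.07% and 8.25%. Each of them had 1 Stmn2 UMI and no UMI of Mycn or Tfap2b, so they met the rule without holding the marker set. None of these 5 barcodes was listed in the opposite library.

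The libraries shared many barcodes, and this touches the sets used for comparison more than the members. Among the 7482 other barcodes labelled Con within the same limits (ribosomal share under 30%), 5539 occurred in the SMA-labelled library too (74.0%, 73.02 to 75.02), against 11 of 1334 members (0.825%, 0.412 to 1.47). Depth differed between these sets, and sharing rose with depth. Between 500 and 1000 UMIs, 8 of 1085 members were shared (0.737%, 0.319 to 1.45) and 2 of 206 other barcodes (0.971%, 0.118 to 3.46). Between 1000 and 2000 UMIs the values were 2 of 237 members (0.844%) and 6 of 499 others (1.20%, 0.443 to 2.60), and in both ranges the intervals overlapped. Between 2000 and 5000 UMIs 0 of 10 members were shared (0 to 30.9%) and 746 of 1923 others (38.8%, 36.6 to 41.0), and these intervals did not overlap. Depth was not matched within this range, where the deepest member with under 2% mitochondrial UMIs had 2982 UMIs. At 5000 UMIs or more, 4785 of 4854 other barcodes were shared (98.6%), and there were 2 members at that depth, of which 1 was shared. Smn1, the targeted gene, had 59.8 CPM (UMIs scaled to a common total of UMIs outside the ribosomal-protein genes) in the other barcodes labelled Con and 58.8 CPM in the 12395 others labelled SMA. No lower Smn1 level could be detected in the SMA-labelled library, so its label could not be checked this way. Members had 1 Smn1 UMI, which says nothing about their genotype.

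Members were shallow. They held 1104419 UMIs together, with a lowest total of 519, a median of 727.5 and a highest of 6303 per barcode, against a median of 6052 in other barcodes labelled Con. The median gene number was 268.5, close to the lower limit of 200, and 172 members had under 220 genes. A further 127 barcodes labelled Con with under 200 genes met the rest of the rule, against 0 of 777 labelled SMA with under 200 genes. The ribosomal share of members ran from 30.2% to 67.9% with a median of 50.2%. Mitochondrial UMIs were nearly absent, with a median share of 0.149% and 388 members at 0, against a median of 6.67% in other barcodes labelled Con. Members above 2% mitochondrial UMIs numbered 11, and 22 more barcodes labelled Con and 5 labelled SMA failed the rule only by a mitochondrial share of 10% or more.

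**Figure D1:**
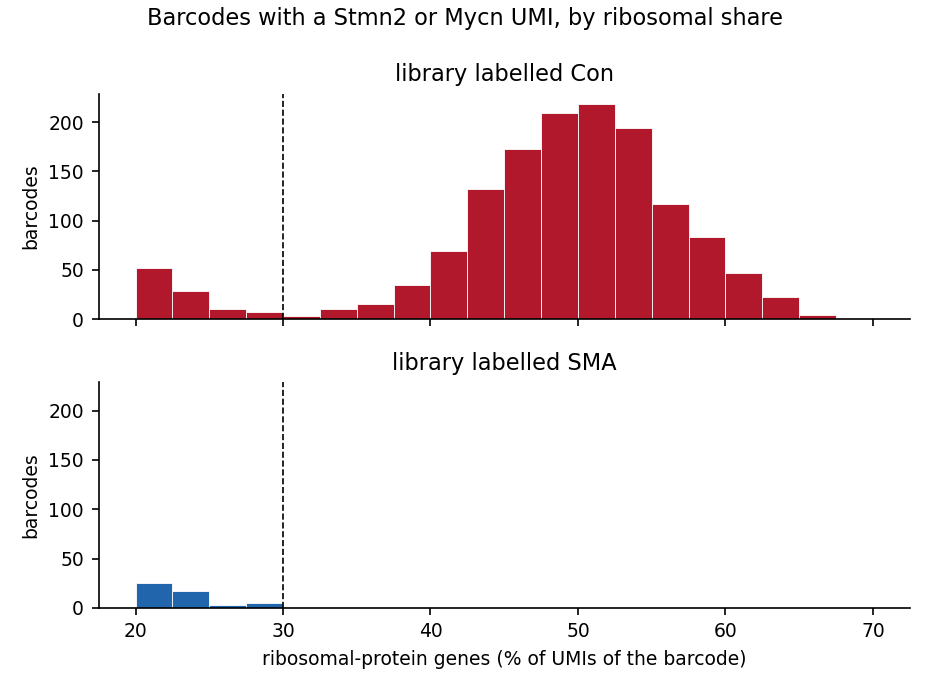
Number of barcodes with at least 1 Stmn2 or Mycn UMI (vertical axis) in steps of 2.5 percentage points of ribosomal share from 20% upward (horizontal axis), for each library within the limits on genes, mitochondrial and haemoglobin share. The dashed line is the 30% limit of the rule. The library labelled Con has a separate group between 35% and 65%, and the library labelled SMA has no barcode at 35% or more.

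The ribosomal limit fell in a sparse stretch of values, as the plot of barcodes by ribosomal share shows. Barcodes labelled Con with Stmn2 or Mycn numbered 81 between 20% and 25%, 17 between 25% and 30%, 13 between 30% and 35%, 51 between 35% and 40%, and 412 between 50% and 55%. The corresponding counts labelled SMA were 42, 8, 2, 0 and 0. The 13 members just inside the limit had medians of 783 UMIs, 371 genes, 4 Stmn2 UMIs and 1 Mycn UMI, with a mitochondrial share of 0.851%. The 17 barcodes just outside it had medians of 1451 UMIs, 709 genes, 4 Stmn2 UMIs and 1 Mycn UMI, with 1.81%. Barcodes on either side of the limit were thus alike in the marker counts.

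The markers of the rule were found together in most members. Stmn2 and Mycn both had a UMI in 1148 members, Stmn2 alone in 170 and Mycn alone in 16. The median member had 12 Stmn2 UMIs (quartiles 7 and 17, highest 53) and 3 Mycn UMIs (quartiles 1 and 4, highest 18). Tfap2b, which the rule did not use, had a UMI in 421 members (31.6%) and at most 4 in any 1 barcode. Stmn2 lies on chromosome 3 (GRCm38, 8509360 to 8561606, plus strand), Mycn on chromosome 12 (12936093 to 12941914, minus strand) and Tfap2b on chromosome 1 (19208914 to 19238576, plus strand).

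Levels are given below as CPM over UMIs outside the ribosomal-protein genes, of which members had 551497, and differences as log2 ratios of summed UMIs against the 7482 other barcodes labelled Con. Because the members were chosen on the same barcodes, these ratios describe them and are no test. They are ratios of UMIs that the authors' pipeline assigned to mouse genes. Whether the RNA of the members came from mouse cells was not tested, and if it did not, a gene's ratio would not measure the level of that mouse gene. Of 11960 genes with at least 100 UMIs in both sets together, 1222 were 2-fold or more higher in members (10.2%) and 7499 were 2-fold or more lower (62.7%), with a median log2 ratio of -1.63. Against CPM over all UMIs the shares were 5.14% higher and 73.9% lower, and after centring on the median they were 29.8% and 30.8%, so the split between higher and lower depends on the scale. The order of genes does not change under either of these scalings, which move every ratio by the same amount.

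The 20 highest genes of members included Stmn2, Mycn, Tfap2b and other transcription factor genes, Rack1, Eef1g and annotated retrogenes. Stmn2 stood at 31070 CPM (17135 UMIs) against 65.7 CPM in other barcodes labelled Con, a log2 ratio of 8.88 (8.83 to 8.94). Mycn stood at 7978 CPM (4400 UMIs) against 13.8 CPM, a ratio of 9.18 (9.05 to 9.30). Tfap2b stood at 1030 CPM (568 UMIs) against 1.03 CPM, a ratio of 9.97 (9.52 to 10.45). Members held 72.1% of all Stmn2, 78.9% of all Mycn and 84.5% of all Tfap2b UMIs in the library labelled Con.

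Isl1, a LIM homeodomain factor of motor, sensory and sympathetic neurons, had 189 UMIs in members (343 CPM) and 7 in other barcodes labelled Con, with a log2 ratio of 11 (9.93 to 12.3). Six3, a homeodomain factor of the forebrain and eye, had 187 UMIs and 9 (10.6, 9.66 to 11.8). Gata3, a zinc-finger factor of sympathetic neurons and of a spinal interneuron class, had 310 UMIs and 93 (7.98, 7.64 to 8.33). Isl1 had 0 UMIs in the whole library labelled SMA and Six3 had 2, whereas Gata3 had 190 there. The members held 90.0% of the Isl1, 86.6% of the Six3 and 60.8% of the Gata3 UMIs of the library labelled Con.

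The neurofilament genes Nefl and Nefm, structural proteins of axons, had 224 and 295 UMIs, with log2 ratios of 5.55 and 5.43. Bcl11a, a zinc-finger repressor of neurons and blood cells, stood at 5.39, the checkpoint kinase gene Chek1 at 5.45, Sinhcaf at 6.18 and the RNA-binding protein gene Hnrnpd at 5.71. Rack1, a scaffold protein of the small ribosomal subunit, had 18415 UMIs (33390 CPM) and a UMI in every member, at a ratio of 5.47 (5.44 to 5.50). Eef1g, a subunit of the elongation factor complex, had 9117 UMIs and a ratio of 5.39. The 20 highest also held Myl6b, a myosin light chain gene, at 9.89, the retrogenes Gm11361 and Gm9844 at 8.71 and 8.30, and Gm10320 at 9.28.

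**Figure D2:**
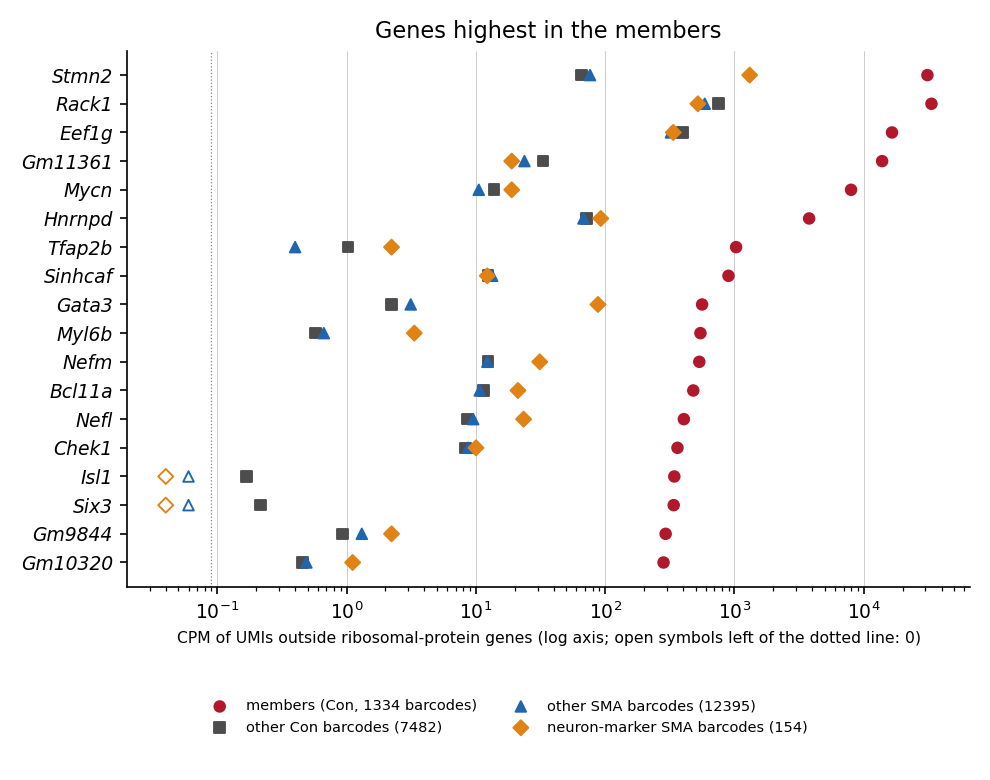
Level in CPM of UMIs outside ribosomal-protein genes (log horizontal axis) of 18 of the 20 genes highest in members against other barcodes labelled Con, for members and 3 comparison sets, 1 summed value per set with no error bar. Open symbols left of the dotted line are at 0. For each gene the members have the highest level, with Stmn2 at 31070 CPM against 1311 CPM in neuron-marker barcodes labelled SMA.

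The 15 genes with most UMIs in members outside the ribosomal-protein and mitochondrial genes were Eef1a1, Ptma, Rack1, Stmn2, H3f3a, H2afz, Eef1g, Ybx1, Gm11361, Naca, Calm2, Serf2, Fau, Eif1 and Mycn. Eef1a1, the main elongation factor, led with 20242 UMIs (36700 CPM), a log2 ratio of 3.00, and Ptma, prothymosin alpha, followed with 18612 UMIs (3.75). The replacement histone genes H3f3a and H2afz stood at 3.39 and 3.74, the RNA-binding Ybx1 at 3.59, and the calmodulin gene Calm2 at 4.30. All 15 had a UMI in more than 87% of members, Mycn being the lowest at 87.3%.

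Detection was compared at equal total UMIs, with microglia-marker barcodes (3 or more of 6 microglial genes detected) as a class that should lack neuronal genes. Thinned to 1000 UMIs, which left out 1085 members and kept 249 with a median of 1226 UMIs, Stmn2 was found in 98.4% of members (98.8% unthinned) and in 2.42% of 1361 microglia-marker barcodes, whose median was 6577 UMIs. Tfap2b was found in 32.9% (27.1 to 39.1; 31.6% unthinned) and 0.0735% (0.216% unthinned), Isl1 in 15.3% and 0%, and Gata3 in 22.5% and 0%. At this depth members kept a mean of 496 UMIs outside the ribosomal-protein genes and 333.3 genes, and microglia-marker barcodes 854 and 596.5. A count of 0 among 1361 allows up to 0.271% by the exact interval. Thinned to 500 UMIs, which kept all 1334 members, Tfap2b was found in 22.8% of members and 0% of microglia-marker barcodes. At 500 UMIs Isl1 was found in 8.77% of members and 0.0718% of microglia-marker barcodes. The members' shares of Tfap2b and Isl1, which the rule did not use, were above the microglia-marker shares at both depths. The detection of Stmn2 was fixed in part by the rule.

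Neuron markers and sympathoadrenal markers were taken as lists. Of 24 pan-neuronal genes compared, 11 were 2-fold or more higher and 8 lower, beside 10.2% and 62.7% of all genes, with a median log2 ratio of 0.54 that became -0.28 with CPM over all UMIs, beside -1.63 over all genes. The higher count and the median include Stmn2, which the rule used. The higher ones included Tubb3, a neuronal tubulin (565 UMIs, 5.32), Elavl4, an RNA-binding protein of neurons (589 UMIs, 5.08), Syt1, a synaptic vesicle calcium sensor (77 UMIs, 4.86), and Gap43, a growth cone protein (401 UMIs, 2.95). Others that differentiating neurons also use were lower, such as Stmn3 (6 UMIs, -4.12), Rtn1 (26 UMIs, -4.30), Meg3 (20 UMIs, -3.11) and Uchl1 (8 UMIs, -2.91), and the neuronal splicing factor Rbfox3 had 0 UMIs. Within the stathmin family Stmn1 and Stmn2 were thus higher (2.21 and 8.88) and Stmn3 and Stmn4 lower (-4.12 and -2.86).

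Of 11 sympathoadrenal genes compared, 6 were higher and 3 lower, with a median of 2.28, where 10.2% of all genes were higher and 62.7% lower. With a minimum of 300 UMIs per gene the median was -0.81, since this leaves out Tfap2b's low-count partners such as Isl1. Besides Tfap2b, Isl1 and Gata3, the higher genes included Ret, the GDNF receptor (13 UMIs, 2.81), and Gata2 (13 UMIs, 2.28). Hand2, a basic helix-loop-helix factor of sympathetic neurons, had 78 UMIs in members and 7 in other barcodes labelled Con, which together stayed under the minimum of 100. The genes of catecholamine synthesis and storage were at 0. Th, Dbh, Ddc, Slc18a1 and Slc18a2 had no UMI in members, which allows up to 5.44 CPM each, and Ddc was at least 6.59-fold lower. The secretory granule gene Chgb had 0 UMIs and was at least 5.93-fold lower, and Chga had 17 UMIs (0.11).

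Markers of spinal and sensory neurons had few or no UMIs. Most were under 1 CPM in other barcodes too, and for those a 0, which allows up to 5.44 CPM, does not show a lower level. Of 6 motor neuron genes, Chat, Slc18a3, Slc5a7 and Mnx1 were at 0, Prph had 2 UMIs and Isl1 had 189. Of 10 inhibitory neuron genes 9 were at 0 (Pax2, Lhx1, Lhx5, Gad1, Gad2, Slc32a1, Slc6a5, Tfap2a and Ptf1a), the exception being Tfap2b. Of 6 excitatory neuron genes 5 were at 0, with 7 UMIs of Phox2a. Of 14 sensory neuron genes found, 8 were at 0, among them Pou4f1 and Neurog1. Of the 5 sensory genes that could be compared 4 were lower, with a median of -2.46, where 62.7% of all genes were lower with a median of -1.63, and Tac1, a neuropeptide precursor gene, had 0 UMIs against 30.02 CPM and was at least 5.52-fold lower. Of 8 retina genes 7 were at 0, with Six3 the exception, and 10 of 10 pluripotency genes were at 0. The barcodes are therefore called by their rule and leading genes, and no cell type is assigned to them.

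Relatives of the abundant factors were read beside them. In the AP-2 family, Tfap2a, Tfap2c, Tfap2d and Tfap2e had 0 UMIs. In the MYC network Mycn had 4400 UMIs, Myc 2 (-3.14) and Mycl 0 (at least 8.49-fold lower), with their partner Max at 75 (0.92) and the repressor Mnt at 37 (2.59). Of 11 MYC network genes, 2 were higher and 6 lower, a median of -1.52 beside -1.63 over all genes. The higher ones were Mnt and Mycn, and the rule used Mycn. Of 24 nucleolar and other MYC target genes, 7 were higher and 11 lower, a median of -0.86 that became 0.77 on centring. Over all genes 10.2% were higher and 62.7% lower. Hspd1, a mitochondrial chaperone (3.48), Pa2g4 (3.40), Bop1 (3.37), Nop58 (2.78) and Fbl, the rRNA methyltransferase (2.33), were higher, while Srm, spermidine synthase (3 UMIs, -4.62), Nme1 (11 UMIs, -4.62), Ldha (-3.21) and Ncl, nucleolin (-2.79), were lower.

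Factors of neuronal differentiation were mixed as well. Of 7 compared, 5 were higher and 1 lower, with a median of 1.67, against 10.2% higher and 62.7% lower over all genes. Myt1l (33 UMIs, 3.64), Sox11 (417, 2.69), Sox12 (55, 2.01), Sox4 (542, 1.67) and Ebf1 (103, 1.52) were higher, whereas Myt1 had 0 UMIs and was at least 4.06-fold lower. Of 25 Hox genes compared, 4 were higher and 12 lower (median -0.86, 0.77 on centring, beside -1.63 over all genes), and 25 of all 39 Hox genes had 0 UMIs. The UMIs lay mostly in the Hoxc cluster, which sets position along the trunk, with Hoxc9 at 183 (2.69), Hoxc6 at 69 (1.97), Hoxc4 at 53 (3.25), Hoxc10 at 49 (0.26) and Hoxc8 at 47 (-0.07). Lin28b, an RNA-binding protein of early development that blocks let-7 processing, had 13 UMIs (23.57 CPM). Other barcodes labelled Con had 76 (1.82 CPM), a log2 ratio of 3.695 (2.722 to 4.555), with counts that together stayed under the minimum of 100. Of 9 genes compared in its list of fetal and tumour genes, 2 were higher and 6 lower (median -1.82), beside 10.2% and 62.7% of all genes.

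Markers of glia and other resident cell types were read beside 62.7% lower and a median of -1.63 over all genes. Of 10 oligodendrocyte-lineage genes 10 were lower (median -4.38, summed level 308 CPM against 6513), of 8 astrocyte genes 8 (-5.41, 123 against 5188), of 8 microglial genes 8 (-4.10, 230 against 4028), and of 4 Schwann cell genes compared 4 (-5.10, 248 against 4370). Olig2 had 1 UMI, Sox10 had 1, and Cspg4, Neu4 and Tmem119 had 0. Of 6 endothelial and 6 mural genes all 12 were lower, with medians of -2.86 and -3.17. Of 8 neural progenitor genes 6 were lower (-2.68), with Vim at 638 UMIs level with the other barcodes (0.10) and Nes at 0. Of 5 neural crest genes compared 3 were lower (-1.16) and of 5 ependymal genes 4 (-1.60), near the values over all genes, and Foxd3, Pax3, Ngfr and Erbb3 were at 0.

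Fibroblast genes lay near the level over all genes. Of 7 fibroblast genes 6 were lower (median -1.81 beside -1.63 over all genes, 693 CPM against 1975). Mfap5 was level in its sum (65 UMIs, -0.01) but was found in 2.02% of members. Dcn, a matrix proteoglycan, had 58 UMIs, found in 0.900% of members. Among haemoglobin genes, whose sum the rule limited, Hbb-bs (548 UMIs, 0.14), Hbb-bt (84, -0.06) and Hba-a1 (231, -0.72) were within 2-fold of other barcodes labelled Con. Hba-a2 was higher (56 UMIs, 1.69). Hbb-bs and Hbb-bt are nearly identical, as are Hba-a1 and Hba-a2, so the division within a pair is uncertain. Of 4 monocyte and neutrophil genes 3 were lower (median -2.12), beside 62.7% of all genes. Lymphocyte genes rested on few UMIs, with Nkg7 at 9, Cd3e at 4 and Cd79b at 0, and the median of the 3 compared, 1.37, became -1.11 with each barcode weighted equally and -1.71 without barcodes shared between the libraries. Acta1, skeletal muscle actin, had 119 UMIs in 8.40% of members against 26 in other barcodes labelled Con (8.44), while Myog, Myod1, Des, Ttn and Tnnt2 were at 0.

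Nuclear and sex-linked RNAs were low. Malat1 had 363 UMIs in members (658 CPM) against 825787 in other barcodes labelled Con (19770 CPM), a log2 ratio of -4.91, and was found in 17.9% of members. Neat1, Kcnq1ot1 and Meg3 stood at -4.32, -3.32 and -3.11. The X-inactivation RNA Xist had 15 UMIs (27.2 CPM against 722) and the Y-linked genes Ddx3y, Eif2s3y, Kdm5d and Uty had 10 together, so members held few reads of either sex-linked group. The 13 mitochondrially encoded genes had 3034 UMIs, and 12 of them were 2-fold or more lower. The 9 with over 20 UMIs lay within a narrow range, from -4.15 (mt-Nd2) to -2.99 (mt-Nd5). Most of them took similar shares of mitochondrial UMIs in members and in other barcodes labelled Con, such as 20.1% and 19.6% for mt-Atp6. The shares of mt-Nd5, with 22 UMIs in members, were 0.725% and 0.424%. SMN complex genes had 3 UMIs in all, with 5 of 7 at 0.

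Translation factors were mostly higher. Of 20 translation factors 16 were higher and 3 lower, with a median of 2.09 (all genes: 10.2% higher, 62.7% lower), and they summed to 134100 CPM against 18620. Pabpc1, the poly(A)-binding protein, stood at 4.01, Eif3m at 3.602, Naca at 3.42, Eif3a at 2.79 and Eef1b2 at 2.76. The lower genes included Tpt1 (534 UMIs, -1.67) and Eef2, the translocase of the ribosome (120 UMIs, -1.63). Eef2 thus had 120 UMIs beside 20242 of Eef1a1, although in other barcodes labelled Con they had 28184 and 192295.

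Ribosomal-protein genes set the rule as a sum, so their shares were read gene by gene within the ribosomal UMIs. Ribosomal proteins are made in equal numbers and their mRNAs vary little between cell types, which makes the profile a reference. In members the profile was uneven. Of 87 genes compared, 22 took a share 2-fold or more higher than in other barcodes labelled Con, 48 a share 2-fold or more lower and 26 a share 16-fold or more lower, with an SD of log2 ratios of 3.24. Over the same 87 genes, barcodes with microglial markers alone were set against barcodes with oligodendrocyte precursor markers alone. This gave 1 higher (Rpl39l, 4.575), 3 lower, 0 that were 16-fold or more lower, and an SD of 0.67. Other barcodes labelled SMA against those labelled Con gave an SD of 0.24.

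Rpl10 alone took 8.18% of the ribosomal UMIs of members (log2 ratio 3.13), Rpl19 6.46% (1.59), Rps7 6.02% (1.81) and Rpl8 5.00% (1.68). The 10 highest genes took 50.6%, against 23.6% for the 10 highest of other barcodes labelled Con. Among the lowest, Rps26 took 0.0101% (-6.71), Rpl3 0.0127% (-6.43), Rps29 0.0134% (-6.42), Rpl21 0.0230% (-6.27), Rps15a 0.0190% (-6.20) and Rpl41 0.0311% (-6.07). These encode constituent proteins of the ribosome, and in other barcodes labelled Con they had between 60791 (Rps26) and 119587 UMIs (Rpl41). Other genes kept their share, such as Rps27a (0.08), Rplp2 (0.05) and Rpl12 (-0.09).

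**Figure D3:**
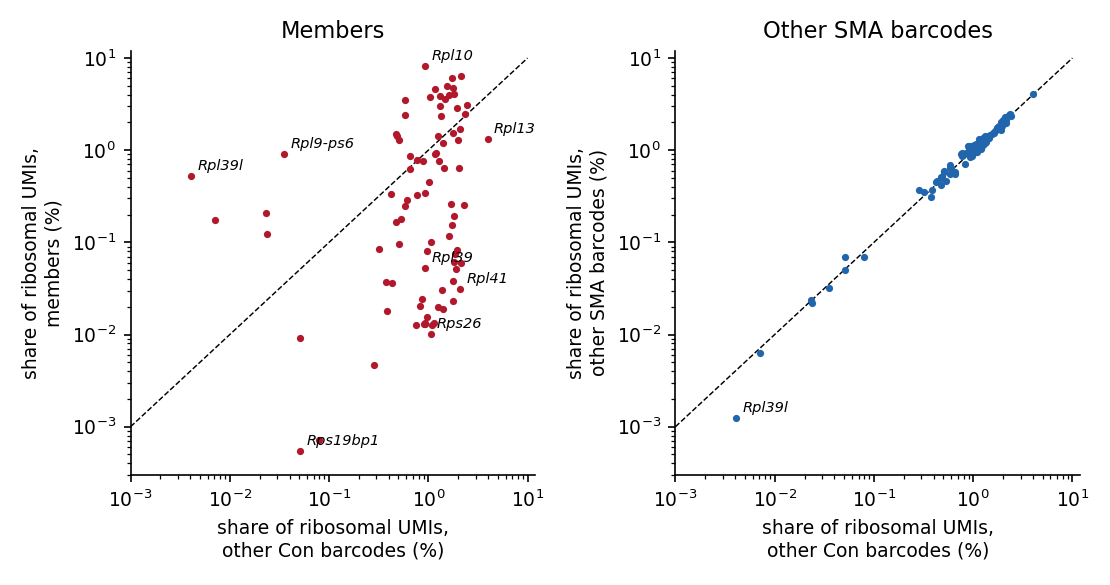
Share of each of 87 ribosomal-protein genes in the ribosomal UMIs (log axes, %), members on the left and other barcodes labelled SMA on the right, each against other barcodes labelled Con. Each point is 1 gene, Rps19bp1 at 0 in members is drawn at 3 UMIs, and the dashed line marks equal shares. Members scatter with an SD of 3.24 in log2 ratio, other barcodes labelled SMA with 0.24.

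Nuclear genes of other complexes were read too, beside the 10.2% of all genes that were higher and the 62.7% that were lower. Of 80 nuclear genes of oxidative phosphorylation compared, 6 were higher and 67 lower, with a median of -3.98. The ATP synthase subunit genes Atp5g3 (3513 UMIs, 4.08), Atp5g2 (4158, 2.71), Atp5l (1805, 2.41), Atp5b (1313, 1.84) and Atp5g1 (875, 1.35) were higher, while others of the same enzyme were lower, such as Atp5f1 (13 UMIs, -4.73), Atp5j2 (15, -4.30) and Atp5o (19, -4.24). In cytochrome c oxidase Cox5a had 1569 UMIs (1.78) and Cox4i1 had 49 (-4.13), Cox6c 27 (-4.14) and Cox8a 33 (-4.50). Of 37 proteasome genes 7 were higher and 13 lower (median -0.14, which became 1.49 on centring), from Psma7 at 3.34 to a lowest value of -4.90.

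Cell-cycle genes were near the background in their counts. Of 41 S phase genes 5 were higher and 24 lower (median -1.77), and of 50 genes of G2 and M phase 7 were higher and 28 lower (median -1.20, 0.43 on centring), beside 10.2% higher, 62.7% lower and a median of -1.63 over all genes. Cks2, a cyclin-dependent kinase subunit (749 UMIs, 3.71), Nasp, a histone chaperone (667, 3.18), the condensin gene Smc4 (158, 2.47) and Top2a, topoisomerase II (98, 1.18), were higher. Cdk1, the kinase that drives mitosis, had 0 UMIs and was at least 14.6-fold lower, and Cdca8, Rpa2, Gmnn and Tacc3 were also at 0. Of 67 clustered histone genes 39 were at 0, and of 13 compared 11 were lower (median -2.74). With a minimum of 20 UMIs per gene their median was 0.64.

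Barcodes were called cycling if at least 3 genes of the 2 lists together had a UMI. After thinning to 1000 UMIs 116 of 249 members were called (46.6%, 40.3 to 53.0), against 35.6% of other barcodes labelled Con, 28.8% of microglia-marker and 35.6% of neuron-marker barcodes. After thinning to 500 UMIs the share was 16.04% (14.1 to 18.1) in all 1334 members and 18.7% in other barcodes, and unthinned it was 30.9% and 89.5%. At 500 UMIs members kept a mean of 249.3 UMIs outside the ribosomal-protein genes and other barcodes 439.2. The order of the shares turned with the depth, so no difference in cycling was read from them.

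Immediate early and heat shock genes respond to dissociation. Of 11 compared, 3 were 2-fold or more higher and 6 lower (median -1.84), beside 10.2% and 62.7% of all genes. The higher ones were Egr1 with 2016 UMIs (2.89), Jun with 1416 (1.24) and the heat shock gene Hspa1b with 102 (4.77), and Fos, with 1857, stood at 0.49, under the 2-fold limit. Junb had 73 (-3.52), Ier2 19 (-4.29), Dusp1 19 (-3.51) and Zfp36 11 (-3.48). Of 3 MHC class I genes 3 were lower, with B2m at -1.45.

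To describe this over many genes, 1994 genes outside the ribosomal-protein genes were taken that had at least 50 CPM in each of 3 separate sets of barcodes labelled Con, those with markers of microglia alone (1049 barcodes), of oligodendrocyte precursors alone (1304) and of astrocytes alone (1955). At 50 CPM such a gene would have 27.6 UMIs in members. Members had 3 UMIs or fewer of 287 of them (14.4%) and none of 41. Neuron-marker barcodes labelled Con and labelled SMA, drawn down to the same 551497 UMIs, had 3 or fewer of 0 genes each. Among the genes with 3 UMIs or fewer were Mbd3, of the NuRD chromatin complex (1 UMI), Reep3 (2), Ndufb2 (1), Iscu, which assembles iron-sulphur clusters (3), and Eif4a3, of the exon junction complex (3). In members 18.8% of these genes lay within 2-fold of other barcodes labelled Con, against 92.7% in neuron-marker barcodes labelled SMA and 85.5% in the microglial set. The microglial set helped to choose these genes and is part of the other barcodes labelled Con, so its value was fixed in part. The interquartile range of the log2 ratio was -3.95 to 0.12 in members and -0.26 to 0.33 in neuron-marker barcodes labelled SMA, and 474 genes were 16-fold or more lower in members against 0. In barcodes with both Mfap5 and Pcolce2, described further on, 75.03% lay within 2-fold, 20 genes were 16-fold or more lower and 8 had 3 UMIs or fewer when 314436 UMIs were drawn.

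**Figure D4:**
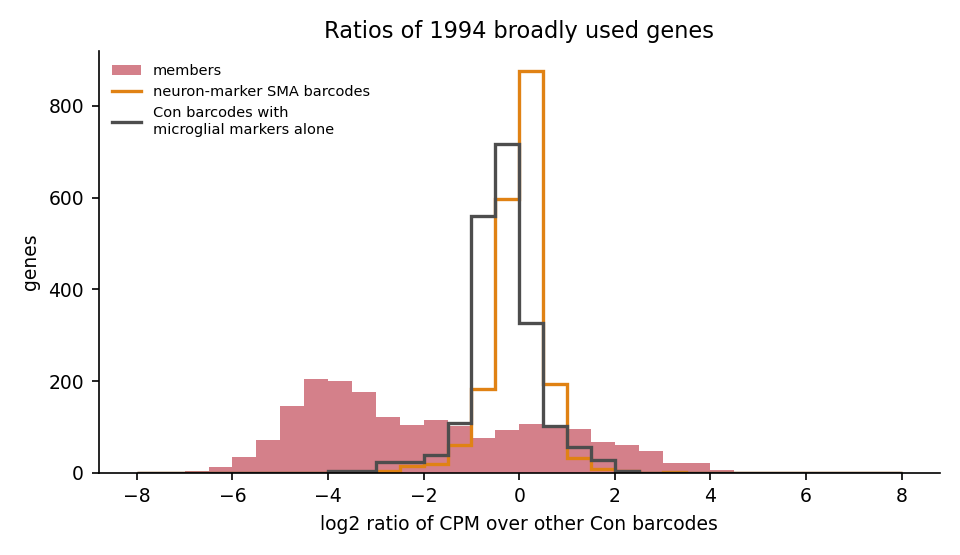
Number of genes (vertical axis) by log2 ratio of CPM over other barcodes labelled Con (horizontal axis, steps of 0.5) for 1994 broadly used genes, in members, in neuron-marker barcodes labelled SMA and in barcodes labelled Con with microglial markers alone. The comparison sets form single peaks near 0, and the members spread from -7.5 to 5.5 with the fullest step, 204 genes, between -4.5 and -4. The microglial set helped to choose these genes, so its peak was fixed in part.

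Genes at the far low end by the naming rule included broadly used and glial genes. Pcsk1n and Scg5, of the secretory pathway of neurons, had 1 UMI each, with log2 ratios of -8.20 (-13.5 to -5.72) and -7.19 (-12.5 to -4.72). Slc6a11, Gpr37l1, Asrgl1, Fam181b, Mbd3 and Ndufb2 also had 1 UMI each, with ratios between -7.73 and -6.93. Aqp4, the astrocyte water channel, had 3 UMIs (-6.85). Counts this small leave wide intervals.

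Several annotated retrogenes and close relatives had more UMIs relative to a related gene than in other barcodes. Gm11361, a protein-coding retrogene on chromosome 13 (28257528 to 28258134, plus strand), had 7647 UMIs, was found in 99.03% of members and stood at 13870 CPM against 33.2 CPM. Rpl39l took 90.9% (89.8 to 91.9) of the UMIs of Rpl39l and Rpl39 together, against 0.436% in other barcodes labelled Con and 0.113% in those labelled SMA. Rpl9-ps6 took 41.0% of the sum with Rpl9 (against 1.74%). Myl6b took 36.3% of the sum with Myl6 (against 0.0619%), Rps27rt 14.0% with Rps27 (against 4.33%) and Rpl36a-ps1 10.9% with Rpl36a (against 1.45%). Rpl10-ps3 went the opposite way, with 1.496% against 2.504%. Counts of copies this similar are uncertain, since the counting can divide reads between them. The pairs were picked after their values were seen.

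**Figure D5:**
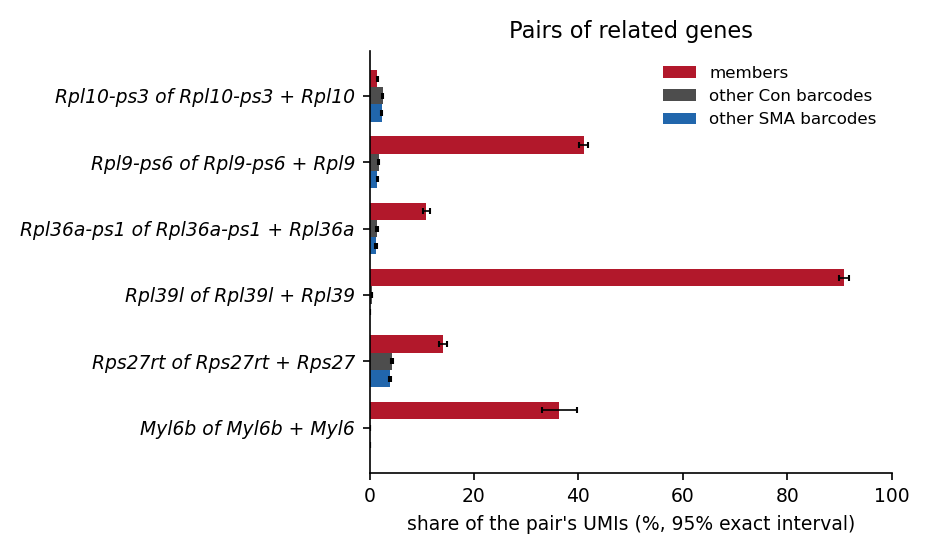
Share of the first gene in the summed UMIs of 6 pairs of related genes (horizontal axis, %), in members, other barcodes labelled Con and other barcodes labelled SMA, with exact 95% intervals for counting error. Rpl39l reaches 90.9% in members, and other barcodes of either library stay under 5% for each pair.

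Genes outside the ribosomal-protein genes that the annotation marks as retrogenes took 1.67% of members' UMIs outside the ribosomal-protein genes, against 0.0372% in other barcodes labelled Con and 0.0373% in those labelled SMA. Without Gm11361 the shares in members and in other barcodes labelled Con were 0.287% and 0.0339%. Genes with a symbol of Gm and a number took 2.08% of the same UMIs against 0.577% and 0.644%. Of 142 of these Gm genes compared, 13 were higher and 67 lower, where 10.2% and 62.7% of all genes were, and Gm11361 had 7647 of their 11468 UMIs in members. Without it the Gm genes took 0.693% against 0.573%.

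Members were also set beside barcodes with neuronal markers. Neuron-marker barcodes, with 3 or more of 10 neuronal genes detected, numbered 118 in the library labelled Con and 154 in the library labelled SMA, and had 652 and 1176 Stmn2 UMIs. Of those labelled Con, 113 were listed in the library labelled SMA too (95.8%, 90.4 to 98.6), and of those labelled SMA 27 were listed in the library labelled Con (17.5%). Those labelled Con had a median of 6696 UMIs, and 30.5% of them had a Stmn2 UMI, 37.3% a Tubb3 UMI and 99.2% a UMI of Apoe, a glial gene, so the name stands for the marker count and not for a cell type. Against those labelled Con, 25.8% of 2214 genes were 2-fold or more higher in members and 51% lower. Against those labelled SMA, 24.8% of 2404 genes were higher and 53.2% lower. The 10 highest genes in the latter comparison included Gm11361 (9.52), Tfap2b, Mycn, Gm10320, Myl6b, Tpm2, Gm9844, Pcolce and Isl1 (a bound of 6.68 on the log2 scale, since neuron-marker barcodes labelled SMA had no Isl1 UMI). Zfhx4 and Six3 were among the 10 highest against those labelled Con. Stmn2 itself was at 1311 CPM in neuron-marker barcodes labelled SMA, a log2 ratio of 4.57, and Tfap2b had 2 UMIs there. Of 24 pan-neuronal genes 13 were lower and 4 higher in this comparison, beside 53.2% lower and 24.8% higher over all genes, and 5 of the list were among the markers that chose the comparison set. Stmn2, which the rule used to choose the members, was among the 4 higher.

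High-ribosome barcodes of the library labelled Con without Stmn2 or Mycn numbered 23. They had a median ribosomal share of 32.9% and a median mitochondrial share of 3.75%, unlike the members. By construction they had no Stmn2 or Mycn UMI, and they had 21 UMIs of Gm11361 in 34769 UMIs outside the ribosomal-protein genes. The next highest genes in members against them included Uxt, Matr3, Atp1b1, Sinhcaf, Srsf1, Map1b and Nsg1, each with 1 UMI in those 23 barcodes.

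Barcodes with both Mfap5 and Pcolce2, another set found mainly in the library labelled Con (115 barcodes, against 1 labelled SMA), were read beside the members. Their median mitochondrial share was 2.04%, and 4 of 115 were listed in the library labelled SMA (3.48%, 0.956 to 8.67). Between 2000 and 5000 UMIs, 0 of 55 were shared, against 38.8% of other barcodes labelled Con. They differed from members in expression. Col3a1 stood at 11630 CPM in them and 225 in members, Stmn2 at 553 and 31070, and Gm11361 at 178 and 13870. These levels are set side by side without a test.

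Traces of the leading genes outside members were alike between the libraries for some genes and not for others. Gm11361 had 1385 UMIs in other barcodes labelled Con and 1068 in those labelled SMA (33.2 and 23.8 CPM), and Mycn had 576 and 474 (13.8 and 10.5 CPM). Tfap2b had 43 and 18, Hand2 7 and 4. Isl1 and Six3 had 7 and 9 UMIs in other barcodes labelled Con, spread over 6 and 8 barcodes, and 0 each in those labelled SMA.

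Clustered alone on their 1000 most variable genes, they formed 2 groups at resolution 0.5 (8 at resolution 1), and the first component held 1.05% of the variance. Sub-cluster 1 had 767 members and sub-cluster 2 had 567, with medians of 662 and 880 UMIs and ribosomal shares of 52.3% and 47.5%. The genes that define sub-cluster 2 were Arl6ip1, Hmgb2, Tubb2a, Hmgb3 and Cks2, with log2 ratios between 1.06 and 1.51 over sub-cluster 1, and Hmgb2 and Cks2 belong to the G2 and M phase list. Those of sub-cluster 1 were Fth1, Tpt1, Stmn2, Npm1 and Ubxn1, with ratios between 0.46 and 0.82. Mycn had 8175 and 7798 CPM, Tfap2b 1134 and 935 CPM, and Isl1 334 and 351 CPM, while Stmn2, one of the genes that define sub-cluster 1, had 36490 and 26100 CPM.

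Levels were also read by depth. In 4 depth groups of the members, from 519 to 626 UMIs in the shallowest to 907 to 6303 in the deepest, Stmn2 stood at 34980, 31890, 31900 and 28320 CPM and Tfap2b at 1126, 1016, 1155 and 914 CPM. Rack1 ranged from 32110 to 34400 CPM. Malat1 rose from 469 to 733 CPM and mt-Co3 from 824 to 1371 CPM between the shallowest and the deepest group, against 19770 CPM of Malat1 and 13030 CPM of mt-Co3 in other barcodes labelled Con. The reads behind the counts were not analysed here.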

How the data were processed

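The deposited files hold raw UMI counts for each gene in each barcode, which the authors obtained with Cell Ranger (version 4.0.0 per the file headers) from 10x Genomics 3′ version 3 libraries. The study's methods name another Cell Ranger version than the headers. The submitters' processing notes name mouse build mm10 and Seurat 3.2.2 for later steps. Depth per barcode is given with the results.

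UMIs were summed over the barcodes of a set and scaled to CPM over UMIs outside ribosomal-protein genes. Ratios have exact conditional binomial intervals and shares exact Clopper-Pearson intervals at the 95% level, and they cover counting error only. With 1 library per group no test was run and no p-value computed. A count of 0 was set to 3 UMIs, which gives a bound, and a gene whose bound turned the ratio the opposite way was left out. Genes needed 100 UMIs in both sets together, and 2-fold was the limit for higher or lower. Neuron-marker barcodes had a UMI of at least 3 of Meg3, Snhg11, Snap25, Syt1, Rbfox3, Slc17a6, Gad1, Gad2, Slc32a1 and Slc6a5. Doublets were treated by the limit of 4000 genes alone.

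The members, the gene lists and the comparison sets were chosen with earlier results of these data known, and the broadly used genes, depth groups and gene pairs after their values were seen. Named genes were the 20 highest (at least 100 UMIs in members and found in 10% of them) and the 10 lowest (at least 1000 UMIs in the other barcodes) against other barcodes labelled Con, the 10 highest against each further set, the 15 most abundant, those leading each sub-cluster, and list genes. List genes with few UMIs are named where they define a cell type. Sub-clusters came from the Louvain method (igraph 0.11.9, 20 components, 15 neighbours). Gene positions and retrogene tags were read from GENCODE M21 on GRCm38. Python 3.11.15, numpy 2.4.6, scipy 1.17.1 and scikit-learn 1.9.0 were used. The ratio step was tested on simulated counts. Alternatives were other limits of the rule, scalings, weights and minimum counts. Some genes that the rule names are not reported here.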

Additional observations from a re-analysis of the deposited data

How the results depend on the processing

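No paired analysis was possible because each group was 1 library with no replicate number, and for the same reason no replicate could be left out. The number of members labelled Con was 1148 when both Stmn2 and Mycn were needed and 1461 with no lower gene limit, an alternative added after seeing the data. The number labelled SMA was 10 at a ribosomal limit of 25%, 0 at a ribosomal limit of 35%, and 7 at a mitochondrial limit of 20%. It was also 0 with 2 UMIs of Stmn2 and Mycn together, with both genes needed, or without members of 2% mitochondrial UMIs or more (also added after seeing the data). The count of higher genes was 658 with CPM over all UMIs and 3561 on centring. The count of lower genes was 3685 on centring and 4630 without barcodes also listed in the library labelled SMA, where fewer genes passed the minimum. Lists with a median 2-fold or more lower numbered 25, and 11 on centring. Thinning to 500 UMIs moved the cycling share to 16.04% and the Tfap2b share to 22.8%, with all members in place of the 249 deepest and fewer UMIs in each, and resolution 1 gave 8 sub-clusters.

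Medians of gene lists changed sign as follows. With CPM over all UMIs the pan-neuronal median became -0.28 and the erythroid -0.78. With each barcode weighted equally the erythroid median was -0.18 and the lymphocyte -1.11. Without shared barcodes they were -0.61 and -1.71. With at least 300 UMIs the sympathoadrenal median was -0.81 and the lymphocyte -1.03. With at least 20 UMIs the erythroid median was -0.061 and the clustered histone 0.64. On centring, the medians became 0.47 (neural crest), 0.031 (ependymal), 0.12 (MYC network), 0.77 (MYC targets), 1.31 (stathmins), 0.43 (G2 and M phase), 0.77 (Hox), 1.49 (proteasome) and 0.71 (Gm genes). The other 233 list values kept their sign. Of the values of named genes 565 stayed within their interval, 170 moved and 0 changed sign. Shallow barcodes limit what can be said of single members.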

Other observations

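The length of the annotated 3′ untranslated region was read because 3′ libraries count molecules near that end, a choice made after the values were seen. It was known for 1974 of the 1994 broadly used genes. Genes 2-fold or more higher in members had a median length of 852 bases and those 2-fold or more lower 553 bases. The share of genes 2-fold or more lower was 60.9% of 156 genes under 100 bases, 76.0% of 475 genes between 200 and 500 bases, and 55.1% of 323 genes of 2000 bases or more. Spearman's rho between length and log2 ratio was 0.11 across these genes, which are not independent replicates, and -0.01 across the 87 ribosomal-protein genes.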
